A study of Homo sapiens with 18 samples.

Results

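AP-1 is the collective name of dimeric transcription factors built from basic leucine zipper proteins. The genes described here are 10 members of that family: the FOS group (FOS, FOSB, FOSL1 and FOSL2), the JUN group (JUN, JUNB and JUND), and ATF3, BATF and MAFF. They were taken by gene symbol, joined by Entrez ID, from 3 tables that set a knockout against its wild type, and they are 10 of 19401 genes listed in at least 1 table. All 10 were listed in both RUNX1 tables. BATF was not listed in the CBFB table used here, which leaves 9 members there.

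The samples were RNA-seq libraries of MCF10A, a human breast epithelial line, in 5 groups. The unedited line does not form tumors, while the study reports that its CBFB and RUNX1 knockout cells formed tumors in mice. CBFB_KO had 3 libraries and CBFB_WT had 3. RUNX1_KO1, RUNX1_KO2 and RUNX1_WT had 4 libraries each. The knockouts were made with CRISPR-Cas9 and grown from single-cell colonies. The genotype labels do not say whether a group held more than 1 clone, and each knockout group is treated here as 1 clone. The properties of a clone and the loss of the gene therefore cannot be told apart. RUNX1_KO1 and RUNX1_KO2 were compared with the same RUNX1_WT libraries. All groups were untreated cells below the same passage limit, in a medium with horse serum, insulin, EGF, hydrocortisone, cholera toxin and antibiotics. The labels number the libraries of a group as repeats and do not say that they came from separate cultures, so the errors measure the spread between these libraries.

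A FOS protein cannot form a stable pair with another FOS protein and binds DNA with a JUN partner. JUN proteins pair with FOS proteins and with each other. The usual target is the TPA response element, and ATF and CREB proteins bind the related cAMP response element (CRE). FOS, FOSB, JUN, JUNB and ATF3 are immediate early genes: serum and growth factors such as EGF raise their mRNA for a short time without new protein synthesis. FOSL1 (FRA1), FOSL2 (FRA2) and JUND are generally more lasting parts of the complex in epithelium. RUNX1 binds DNA together with CBFB, and RUNX and AP-1 sites often lie close to each other in enhancers.

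Sequences upstream of the start site are shown for the 4 members that passed the adjusted threshold in at least 1 table, JUNB, FOS, JUN and FOSL2. Each is the stretch of 250 bases before the RefSeq start in GRCh38.p14, read 5′ to 3′ on the strand of the gene. JUNB is at chr19:12791236-12791485 (plus strand), FOS at chr14:75278578-75278827 (plus strand), JUN at chr1:58784048-58784297 (minus strand) and FOSL2 at chr2:28392608-28392857 (plus strand). Capitals mark letters that match a searched motif on either strand.
JUNB: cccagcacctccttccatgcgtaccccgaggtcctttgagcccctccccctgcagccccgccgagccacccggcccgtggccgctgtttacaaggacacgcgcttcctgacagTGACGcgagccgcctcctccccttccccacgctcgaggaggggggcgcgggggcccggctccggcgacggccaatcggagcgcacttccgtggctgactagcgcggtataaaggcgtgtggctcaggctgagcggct
FOS: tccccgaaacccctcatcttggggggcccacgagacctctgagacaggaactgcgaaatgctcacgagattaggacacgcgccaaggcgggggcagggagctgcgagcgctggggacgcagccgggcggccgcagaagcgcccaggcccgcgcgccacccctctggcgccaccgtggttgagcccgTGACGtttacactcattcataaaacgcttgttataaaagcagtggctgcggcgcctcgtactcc
JUN: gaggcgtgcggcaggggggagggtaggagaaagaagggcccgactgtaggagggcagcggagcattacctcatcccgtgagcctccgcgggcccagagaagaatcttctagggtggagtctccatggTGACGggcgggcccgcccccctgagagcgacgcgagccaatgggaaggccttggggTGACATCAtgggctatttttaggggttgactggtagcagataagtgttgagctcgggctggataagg
FOSL2: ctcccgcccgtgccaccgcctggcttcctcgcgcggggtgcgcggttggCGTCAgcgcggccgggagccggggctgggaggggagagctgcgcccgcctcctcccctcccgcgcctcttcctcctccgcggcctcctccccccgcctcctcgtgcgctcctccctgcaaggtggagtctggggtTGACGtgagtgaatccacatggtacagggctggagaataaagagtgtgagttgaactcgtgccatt

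The motifs searched were the TPA response element TGANTCA, the CRE TGACGTCA, its short form TGACG, the variant TGACATCA, the RUNX core TGTGGT and the CArG box bound by SRF. Every CRE also holds the short form. The short form was found 137 bases before the start in JUNB, 64 before it in FOS, 123 before it in JUN, and 66 and 201 before it in FOSL2. It was also found in FOSB, 60 bases before the start, and in JUND and MAFF, members that did not pass in any table. JUN also held the variant TGACATCA 67 bases before the start. The short form is common, being in 21.2% of the 35093 RefSeq promoter windows of the same length. TGACATCA was in 2.37% of them, the CRE in 1.65%, TGANTCA in 6.57%, TGTGGT in 10.97% and the CArG box in 1.16%. Promoters were given for 9 of the 10 members, as 11 windows. The full CRE was found in JUND, 200 bases before the start, and in MAFF, 54 bases before it. The RUNX core was found only in the BATF window, 32 bases before the start. TGANTCA and the CArG box were found in no window of a member. These matches describe letters in the window and are not evidence of binding.

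The tables hold, for each gene, a mean normalized count over the libraries of both groups, a log2 fold change of knockout over wild type with its standard error (SE), and a p-value with its adjusted value. They hold no value for a single library. For each member a level in the wild type and in the knockout was therefore back-calculated from the mean and the fold change, and no spread over libraries can be given for these levels. The normalized counts summed to 16467400 to 20214423 per library across the tables. The adjusted p-values are those of the deposited test over all tested genes. A gene was called changed at an adjusted p below 0.05 and at least 2-fold, and was said to differ at an adjusted p below 0.05 alone.

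CBFB mRNA was far lower in CBFB_KO, with a log2 fold change of -4.88 ± 0.14 (SE). RUNX1 mRNA was higher in RUNX1_KO1 (0.54 ± 0.09) and in RUNX1_KO2 (0.46 ± 0.13), so the mRNA does not check these labels, and directions given for them are those of the libraries labelled RUNX1_KO1 and RUNX1_KO2. The 10 basal epithelial markers chosen for the check had means of at least 1606 normalized counts in the CBFB table, where KRT5 reached 87894. In CBFB_KO 4 of 10 rose and 1 fell, where 11.7% of all tested genes were higher and 7.97% lower. In RUNX1_KO1 9 of 10 rose and 1 fell, against 19.7% and 19.9%, and in RUNX1_KO2 3 of 9 rose, against 8.76%. The markers of other cell types were mixed. All 3 endothelial markers stayed below 4 normalized counts, and the leukocyte gene CD3E did not exceed 0.301. The leukocyte-list genes CD14 (128 to 142) and CSF1R (109 to 204) were present, and CSF1R rose 2.14-fold in RUNX1_KO1 and 2.22-fold in RUNX1_KO2. Of the fibroblast list, PDGFRA (466 to 633) and COL1A1 (236 to 305) were present and COL1A2 was at 0.145 or not listed. COL1A1 rose in all 3 tables, by 2.56-fold to 3.35-fold. Of the luminal list, KRT8 rose in all 3 and KRT18 rose in CBFB_KO, while GATA3 fell in RUNX1_KO1 (-0.26, adjusted p = 0.0360). ESR1 did not pass in any table. In CBFB_KO 2 of the 4 tested luminal genes rose, against 11.7% of all tested genes. In RUNX1_KO1 1 of 5 rose and 1 fell, against 19.7% and 19.9%, and in RUNX1_KO2 1 of 5 rose, against 8.76%. The part of these genes in the results on AP-1 was not tested.

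The AP-1 genes moved little. JUNB rose in all 3 comparisons, by 1.55-fold to 1.72-fold. FOS fell in CBFB_KO and in RUNX1_KO1, to 0.629 and 0.698 of the wild-type level. JUN fell in RUNX1_KO2 to 0.683 of that level, and FOSL2 rose by 1.15-fold in RUNX1_KO1. FOSL1, the most abundant FOS-group mRNA, and JUND, MAFF, FOSB and ATF3 did not pass the adjusted threshold in any table.

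No member was called changed. With the 2-fold limit the count was 0 of 9 tested members in CBFB_KO, where 2.98% of the 14975 tested genes were called. It was 0 of 9 in RUNX1_KO1, where 4.93% of 16394 tested genes were called, and 0 of 9 in RUNX1_KO2, where 5.48% of 15636 were called. An unadjusted p below 0.05 in place of the adjusted one also gave 0 members past 2-fold in each table. That was fixed in advance, because no tested member reached 2-fold. The 95% interval of the fold change lay inside 2-fold either way for 7 of 9 members in CBFB_KO, 8 of 9 in RUNX1_KO1 and 6 of 9 in RUNX1_KO2. These intervals rest on the SE of the deposited fit. For the scarce genes FOSB and ATF3 in CBFB_KO the SE (0.28 and 0.29) lay near the largest of that table, 0.293. Their intervals therefore do not bound a change that was missed. The SE of FOSL1 in that table was 0.26, so its interval may not bound one either.

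Without the fold limit, 1 member was higher and 1 lower in CBFB_KO, against 11.7% and 7.97% of all tested genes. In RUNX1_KO1, 2 were higher and 1 lower, against 19.7% and 19.9%. In RUNX1_KO2, 1 was higher and 1 lower, against 8.76% and 6.08%. As shares of 9 members these counts are close to the background of each table, so they are no result about the family as a group. An unadjusted p below 0.05 was reached by 2 members in CBFB_KO, 4 in RUNX1_KO1 and 2 in RUNX1_KO2. By p-value ATF3, the last of the 4 in RUNX1_KO1, ranked 7251 of 18517 listed genes. MAFF, just above 0.05 in CBFB_KO, ranked 4878 of 18526, and ATF3, just above it in RUNX1_KO2, ranked 3944 of 18117. Such p-values were common among all genes, so these counts are no result about the family either. The median log2 fold change of the 9 members was 0.14 in CBFB_KO, -0.07 in RUNX1_KO1 and -0.20 in RUNX1_KO2, and the medians over all tested genes were -0.01, -0.00 and 0.02.

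**Figure D1:**
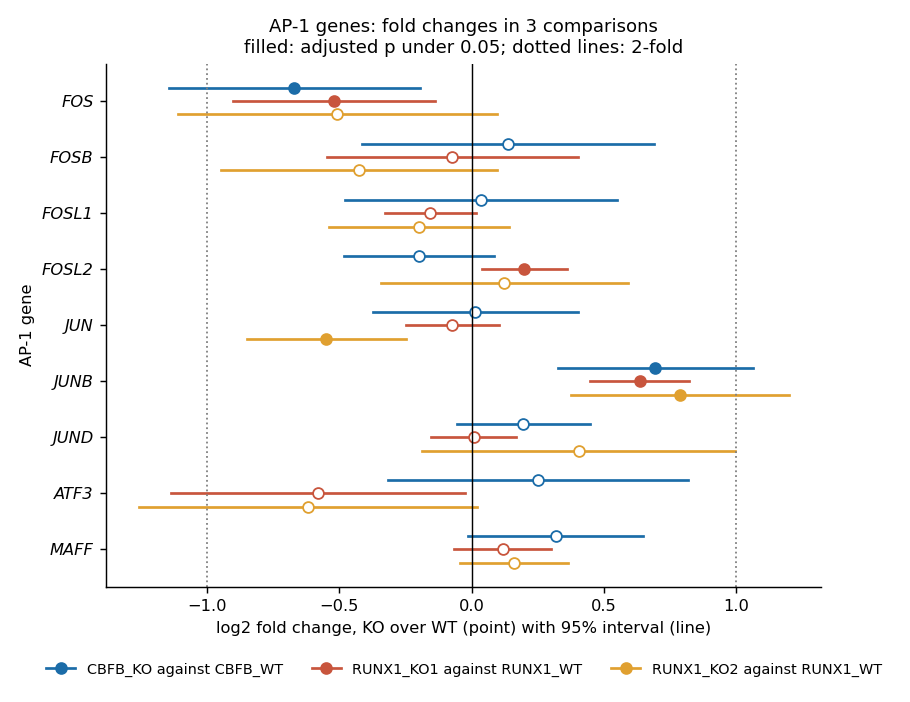
Log2 fold change of knockout over wild type for the 9 AP-1 genes tested in all 3 tables, with one row of 3 points per gene and a line for the 95% interval. Filled points passed an adjusted p of 0.05. JUNB lies to the right of 0 in each comparison (0.69, 0.64 and 0.79), FOS to the left (-0.67, -0.52 and -0.51), and no point lies beyond the dotted 2-fold lines.

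JUNB encodes a JUN protein that pairs with FOS proteins and is a weaker activator than JUN at many promoters. Its back-calculated level was 1255 normalized counts in CBFB_WT and 2030 in CBFB_KO. In the RUNX1 tables it was 1247 in RUNX1_WT against 1937 in RUNX1_KO1, and 1200 in RUNX1_WT against 2070 in RUNX1_KO2. Each knockout lay above its own wild type. The RUNX1_WT levels come from the same libraries, normalized separately for each table, so their closeness is not independent agreement. The CBFB table was also normalized separately, so the CBFB_WT level cannot be compared directly with them. The log2 fold change was 0.69 ± 0.19 (SE, adjusted p = 0.00239) in CBFB_KO. In RUNX1_KO1 it was 0.64 ± 0.10 (adjusted p = 4.89e-10), and in RUNX1_KO2 it was 0.79 ± 0.21 (adjusted p = 0.00238).

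The 95% intervals for JUNB were 1.25-fold to 2.09-fold in CBFB_KO, 1.36-fold to 1.77-fold in RUNX1_KO1 and 1.30-fold to 2.30-fold in RUNX1_KO2. A change of 2-fold was therefore within reach in CBFB_KO and RUNX1_KO2 and outside the interval in RUNX1_KO1. JUNB has a short and GC-rich transcript, with 64.9% GC over 1.82 kb. With a trend on transcript length and GC content removed, the log2 fold change was 0.54 in CBFB_KO (adjusted p = 0.0276) and 0.68 in RUNX1_KO1, and in RUNX1_KO2 it was 0.53 and lost its call (adjusted p = 0.0763). HOOK2 overlaps JUNB in RefSeq, and whether the reads were counted by strand is not given in the sources used here. HOOK2 itself did not pass in any table, with log2 fold changes of 0.02, -0.26 and 0.10.

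FOS, the founding FOS-group gene and a serum-induced one, was at a lower level than JUNB in every group. Its back-calculated level was 507 normalized counts in CBFB_WT and 319 in CBFB_KO. In the RUNX1 tables it was 363 against 253 in RUNX1_KO1 and 338 against 238 in RUNX1_KO2. Each knockout lay below its wild type. The log2 fold change was -0.67 ± 0.24 (SE, adjusted p = 0.0332) in CBFB_KO and -0.52 ± 0.19 (adjusted p = 0.0222) in RUNX1_KO1. In RUNX1_KO2 it was -0.51 ± 0.31 and did not pass (adjusted p = 0.327), with an interval from 0.464-fold to 1.07-fold. With the length and GC trend removed, FOS kept its call in CBFB_KO (adjusted p = 0.0177) and lost it in RUNX1_KO1 (adjusted p = 0.0654).

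JUN, the partner of FOS in the classical AP-1 dimer, showed a lower level in 1 comparison. Its level was 1271 in CBFB_WT and 1283 in CBFB_KO, and 1043 in RUNX1_WT against 991 in RUNX1_KO1. Against RUNX1_KO2 it was 977 in RUNX1_WT and 668 in the knockout. The log2 fold changes were 0.01 ± 0.20 in CBFB_KO (adjusted p = 0.974), -0.07 ± 0.09 in RUNX1_KO1 (adjusted p = 0.563) and -0.55 ± 0.15 in RUNX1_KO2 (adjusted p = 0.00397). The call in RUNX1_KO2 held with the trend removed, at -0.68. The RUNX1 clones share their control libraries, and the difference between them was not tested.

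JUND, a JUN protein that many cells make at a steady level, gave log2 fold changes of 0.20 ± 0.13, 0.01 ± 0.08 and 0.40 ± 0.30 in CBFB_KO, RUNX1_KO1 and RUNX1_KO2. None passed (adjusted p = 0.310, 0.958 and 0.480). In RUNX1_KO1 the 95% interval was 0.899-fold to 1.12-fold, which leaves room for only a small change. In RUNX1_KO2 it reached 1.99-fold. JUND has the most GC-rich transcript of the members at 69.7%.

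FOSL1 averaged 2316 normalized counts over the CBFB libraries, the highest of the members there, and 1546 and 1436 in the RUNX1 tables. Its log2 fold change was 0.03 ± 0.26 in CBFB_KO, -0.16 ± 0.09 in RUNX1_KO1 and -0.20 ± 0.17 in RUNX1_KO2. None passed (adjusted p = 0.949, 0.148 and 0.571). The intervals were 0.717-fold to 1.46-fold, 0.797-fold to 1.01-fold and 0.689-fold to 1.10-fold.

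FOSL2 was at 890 normalized counts in RUNX1_WT and 1023 in RUNX1_KO1, with a log2 fold change of 0.20 ± 0.08 (adjusted p = 0.0405). This call was lost with the length and GC trend removed, at 0.04 (adjusted p = 0.762). FOSL2 has the longest transcript of the members, 6.71 kb. In CBFB_KO the log2 fold change was -0.20 ± 0.14 and in RUNX1_KO2 it was 0.12 ± 0.24, and neither passed (adjusted p = 0.367 and 0.846). FOSB was scarce, with means of 34.0, 25.7 and 21.7 normalized counts. Its log2 fold changes were 0.14 ± 0.28, -0.07 ± 0.24 and -0.43 ± 0.27, none of which passed.

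ATF3, a stress-induced partner of JUN proteins that often represses, was near the lower end of what could be tested. Its means were 9.49, 12.4 and 12.1 normalized counts. The log2 fold changes were 0.25 ± 0.29 in CBFB_KO, -0.58 ± 0.28 in RUNX1_KO1 and -0.62 ± 0.33 in RUNX1_KO2 (adjusted p = 0.620, 0.0916 and 0.228). The 95% intervals were 0.802-fold to 1.76-fold in CBFB_KO, 0.455-fold to 0.983-fold in RUNX1_KO1 and 0.418-fold to 1.01-fold in RUNX1_KO2. The interval in RUNX1_KO1 lay below no change, although the adjusted p did not pass. BATF, which acts chiefly in lymphocytes, had means of 0.263 and 0.127 normalized counts in the RUNX1 tables and no adjusted p. It was not detectable as a changed or unchanged gene at this depth.

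MAFF, a small MAF protein without an activation domain, had log2 fold changes of 0.32 ± 0.17, 0.12 ± 0.09 and 0.16 ± 0.10 in CBFB_KO, RUNX1_KO1 and RUNX1_KO2. None passed (adjusted p = 0.184, 0.341 and 0.379), and the intervals reached 1.57-fold, 1.23-fold and 1.29-fold at most. TMEM184B overlaps MAFF in RefSeq and rose in all 3 tables, by 0.45, 0.33 and 0.26 on the log2 scale. How reads in the overlap were counted is not given in the sources used here.

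**Figure D2:**
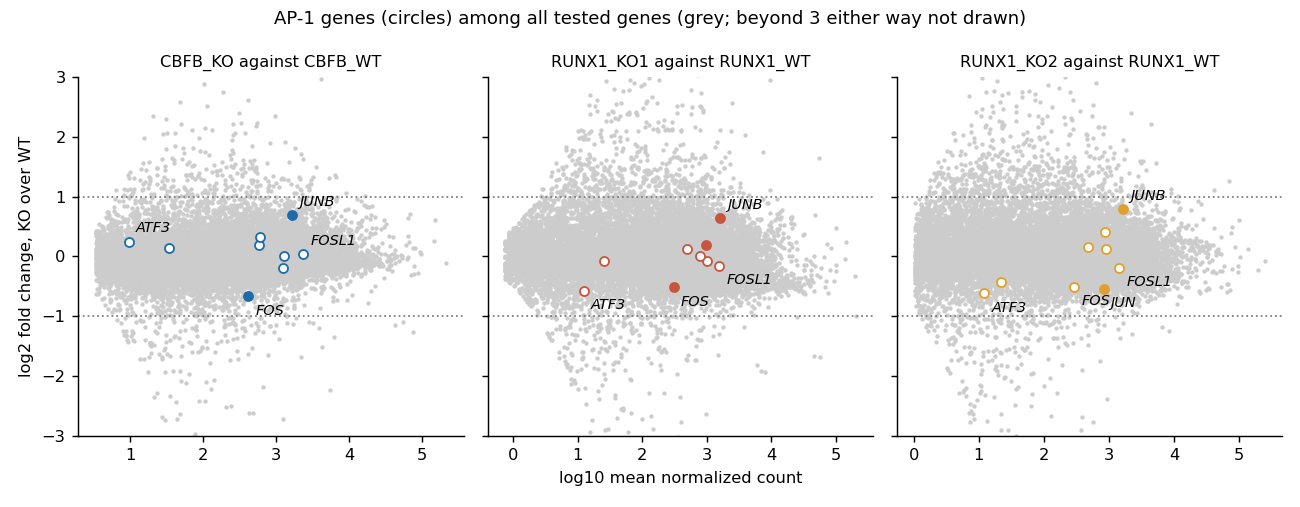
Log2 fold change of knockout over wild type against the log10 of the mean normalized count for each tested gene (grey), with the AP-1 genes as circles, filled where the adjusted p was below 0.05. Genes beyond 3 on the vertical axis are not drawn. The AP-1 genes sit inside the dotted 2-fold lines in each of the 3 panels, with JUNB the highest of them.

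The precision of the fold changes differed between members. In the CBFB table the SE of FOSL1 was 0.26, which is 2.81 times the median SE of genes with a similar mean. The same ratio was 2.001 for JUN, 1.95 for JUNB, 1.86 for FOS, 1.47 for MAFF and 1.41 for FOSL2. In the RUNX1_KO1 table it was 0.945 for FOSL1, 0.954 for JUN and 1.08 for JUNB, and 1.78 for FOS. In the RUNX1_KO2 table it was 1.47 for JUND, 1.44 for FOS, 1.02 for JUNB and 0.458 for MAFF. FOS thus had a wider error than the median gene of its level in each table. The SE was also limited from above, to 0.293, 0.314 and 0.411 at most over all genes of the tables. In the RUNX1_KO1 table the SE was smaller for BATF (0.13, at a mean of 0.263) than for ATF3 (0.28, at a mean of 12.4). A ceiling with such a drop is seen where a fit pulls fold changes toward 0 at low counts. That would touch ATF3, FOSB and BATF, and the levels back-calculated from their fold changes. It may also touch members with a wide SE at higher counts, such as FOSL1 (0.26) and FOS (0.24) in the CBFB table. The setting of the fit is not given in the sources used here.

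Levels can be compared between genes per kb of transcript. In CBFB_WT the order was FOSL1 (1371 normalized counts per kb), JUNB (689), JUN (359), JUND (286), FOS (235), FOSL2 (197) and MAFF (163), with FOSB at 8.58 and ATF3 at 4.12. In RUNX1_WT, as back-calculated from the RUNX1_KO1 table, FOSL1 (976) and JUNB (685) again led. They were followed by JUND (415), JUN (295), FOS (168), MAFF (142) and FOSL2 (133). FOSB was at 6.99, ATF3 at 7.09 and BATF at 0.268. The 3 tables were normalized separately, and without a spread per library it cannot be said which neighbors in this order differ.

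**Figure D3:**
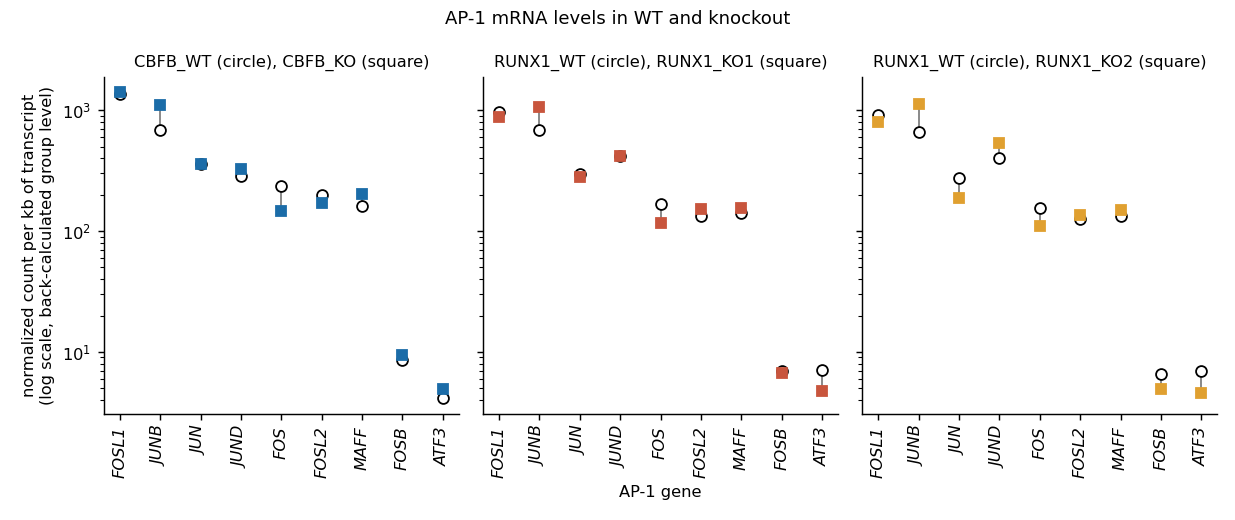
Back-calculated level of the 9 tested AP-1 genes in normalized counts per kb of transcript (log axis), wild type as circles and knockout as squares, with 1 panel per table. FOSL1 and JUNB are the 2 highest in each panel, and in the panels of RUNX1_KO1 and RUNX1_KO2 the square of JUNB (1064 and 1137) lies above that of FOSL1 (876 and 801).

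The leading pair was JUNB and FOSL1 in each group. JUNB was at 0.503 of the FOSL1 level per kb in CBFB_WT and 0.794 in CBFB_KO. It was at 0.702 in RUNX1_WT and 1.21 in RUNX1_KO1, and at 0.717 in RUNX1_WT and 1.42 in RUNX1_KO2. The back-calculated JUNB level was thus below that of FOSL1 in the wild types and in CBFB_KO, and above it in both RUNX1 clones. The ratio of JUNB to FOS per kb was 2.94 in CBFB_WT and 7.56 in CBFB_KO, 4.07 and 9.06 for RUNX1_KO1, and 4.21 and 10.3 for RUNX1_KO2. These ratios are descriptions, since no error can be given for them.

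Within the JUN group, JUNB made up 51.7% of the summed level per kb in CBFB_WT and 61.8% in CBFB_KO. The corresponding shares were 49.1% and 60.4% for RUNX1_KO1, and 49.2% and 61.1% for RUNX1_KO2. JUN itself went from 26.9% to 20.1%, from 21.1% to 15.9% and from 20.6% to 10.1%. Within the FOS group, FOSL1 held 75.7% to 76.1% in the wild types. It held 81.0% in CBFB_KO, 76.0% in RUNX1_KO1 and 76.1% in RUNX1_KO2. FOS held 13.0%, 13.1% and 13.0% in the wild types and 8.52%, 10.2% and 10.5% in the knockouts. The summed JUN level over the summed FOS level was 0.736 in CBFB_WT and 1.04 in CBFB_KO. It was 1.09 and 1.53 for RUNX1_KO1, and 1.11 and 1.77 for RUNX1_KO2.

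**Figure D4:**
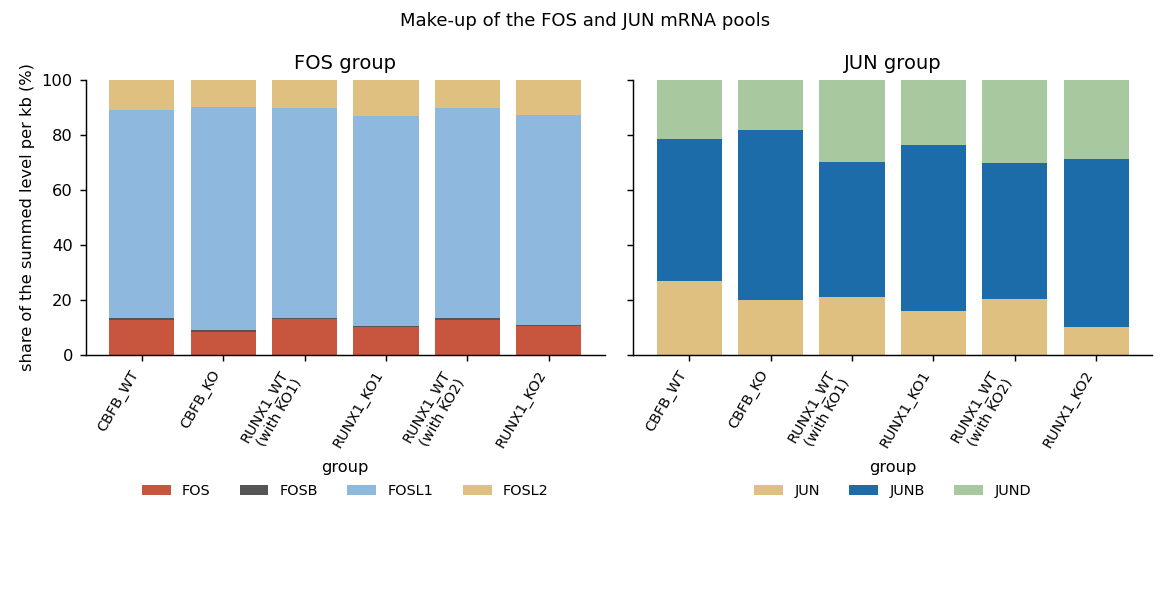
Share in percent of each gene in the summed level per kb of the FOS group (left) and the JUN group (right), for the wild type and the knockout of each table. The JUNB segment covers 49.1% to 51.7% in wild type and 60.4% to 61.8% in knockout, and FOSL1 covers over 75% of the FOS group in each bar.

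Whether a member responded differently in CBFB_KO and in a RUNX1 clone was tested as the difference of the log2 fold changes, since these tables share no library. The study reports that RUNX1 protein was also lost in CBFB_KO cells, so the test does not set loss of CBFB alone against loss of RUNX1. No member passed in either test, in which 9.84% of 14940 genes (CBFB_KO and RUNX1_KO1) and 2.9% of 14503 genes (CBFB_KO and RUNX1_KO2) did. For JUNB the response of CBFB_KO minus that of RUNX1_KO1 was 0.06 ± 0.21 (SE), with a 95% interval from -0.36 to 0.47. Minus that of RUNX1_KO2 it was -0.09 ± 0.28, from -0.65 to 0.46. The intervals still allow a difference of about 0.5 on the log2 scale, so like responses are not shown. For FOS the corresponding differences were -0.15 ± 0.31 and -0.16 ± 0.39.

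An unadjusted p below 0.05 was reached by 2 members in each test. The share of all tested genes at that threshold was not computed, so this count is no result about the members. For FOSL2 the difference of CBFB_KO minus RUNX1_KO1 was -0.40 ± 0.17 (adjusted p = 0.108). For JUN the difference of CBFB_KO minus RUNX1_KO2 was 0.56 ± 0.25 (adjusted p = 0.361). For ATF3 it was 0.83 ± 0.41 against RUNX1_KO1 and 0.87 ± 0.44 against RUNX1_KO2 (adjusted p = 0.185 and 0.507). None of these differences passed, so an effect particular to 1 knockout is not shown for any member.

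The remaining genes of the AP-1 system were read from lists that were chosen for their role, with earlier results of these data known. Their counts beside the background are therefore descriptions. Of 8 other AP-1 and MAF proteins, 6 were tested in CBFB_KO and 8 in each RUNX1 table. JDP2 fell in all of them, where 7.97%, 19.9% and 6.08% of all tested genes were lower. JDP2, a repressor that pairs with JUN proteins, gave log2 fold changes of -0.54 ± 0.18 in CBFB_KO (adjusted p = 0.0207), -0.81 ± 0.14 in RUNX1_KO1 (adjusted p = 6.74e-08) and -0.66 ± 0.14 in RUNX1_KO2 (adjusted p = 9.76e-05). In RUNX1_KO1 ATF7 also passed, higher at 0.40. The median of the list was 0.09, 0.11 and 0.03, beside -0.01, -0.00 and 0.02 over all tested genes.

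Of 15 genes that signal to AP-1, from EGFR through the MAP kinases to SRF and its ternary complex factors, 0 passed in CBFB_KO and 0 in RUNX1_KO2. In RUNX1_KO1 3 rose and 1 fell, against 19.7% and 19.9% of all tested genes, so the counts are near the background or below it. ELK3, a ternary complex factor, rose by 0.49 ± 0.12 there (adjusted p = 0.000273), and MAPK3, the kinase ERK1, by 0.31 ± 0.09 (adjusted p = 0.00255). SRF, which binds the CArG box of FOS, fell by 0.24 on the log2 scale (SE 0.06, adjusted p = 0.000757). EGFR did not pass in any table. The medians of this list were -0.04, 0.03 and -0.18.

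Of 22 other immediate early genes, 3 rose and 2 fell in CBFB_KO, 10 rose and 1 fell in RUNX1_KO1, and 4 rose and 1 fell in RUNX1_KO2. Those tested numbered 20, 22 and 21. Over all tested genes the shares higher and lower were 11.7% and 7.97%, 19.7% and 19.9%, and 8.76% and 6.08%, so the counts in CBFB_KO are near the background. The list median was 0.12, 0.26 and 0.15. IER2, IER5 and KLF4 rose in all 3 tables, as JUNB did. IER2, a nuclear protein induced by serum, gave 0.72 ± 0.14, 0.69 ± 0.09 and 0.95 ± 0.29 (adjusted p = 9.17e-06, 1.52e-13 and 0.00877). Its call in RUNX1_KO2 was lost with the length and GC trend removed (adjusted p = 0.0625). IER5, a regulator of heat shock factor, gave 0.45 ± 0.09, 0.61 ± 0.08 and 0.65 ± 0.14 (adjusted p = 1.98e-05, 1.76e-11 and 5.55e-05). KLF4, a zinc finger factor of differentiating epithelium, gave 0.62 ± 0.21, 1.06 ± 0.14 and 0.95 ± 0.24 (adjusted p = 0.0204, 1.60e-13 and 0.00107). With the trend removed its adjusted p in CBFB_KO was 0.0601.

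Of 20 epithelial genes that textbooks name as AP-1 targets, 12 could be tested in CBFB_KO, where 4 rose and 1 fell, against 11.7% and 7.97% of all tested genes. In RUNX1_KO1 12 of 19 rose and 2 fell, against 19.7% and 19.9%. In RUNX1_KO2 7 of 17 rose and 1 fell, against 8.76% and 6.08%. At least 2-fold changes were 1 rise in CBFB_KO, 7 rises and 1 fall in RUNX1_KO1, and 6 rises and 1 fall in RUNX1_KO2, where 2.98%, 4.93% and 5.48% of all tested genes were called in either direction. The list median was 0.49, 0.42 and 0.58. IVL, the cornified envelope protein involucrin, rose in all 3, by 1.22 ± 0.23 in CBFB_KO, 2.42 ± 0.11 in RUNX1_KO1 and 2.16 ± 0.14 in RUNX1_KO2 (adjusted p = 2.70e-06, 4.35e-108 and 1.59e-51). The following genes were named after their values were seen. MMP9, PLAU, CXCL8 and HBEGF rose in both RUNX1 clones, MMP9 the most at 4.92 and 4.46, and they were not listed in the CBFB table used here. VIM rose by 0.64 ± 0.18 in CBFB_KO and fell by 1.74 in RUNX1_KO1 and fell by 2.77 in RUNX1_KO2. TIMP1 fell in CBFB_KO (-0.67) and in RUNX1_KO1 (-0.65) and did not pass in RUNX1_KO2. MMP1, MMP3, MMP10 and MMP13 had means of at most 3.85 normalized counts and passed in no table. Many of these genes have other regulators, and the list does not measure AP-1 activity. The whole list was chosen with earlier results of these data known, so its counts are no independent evidence.

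**Figure D5:**
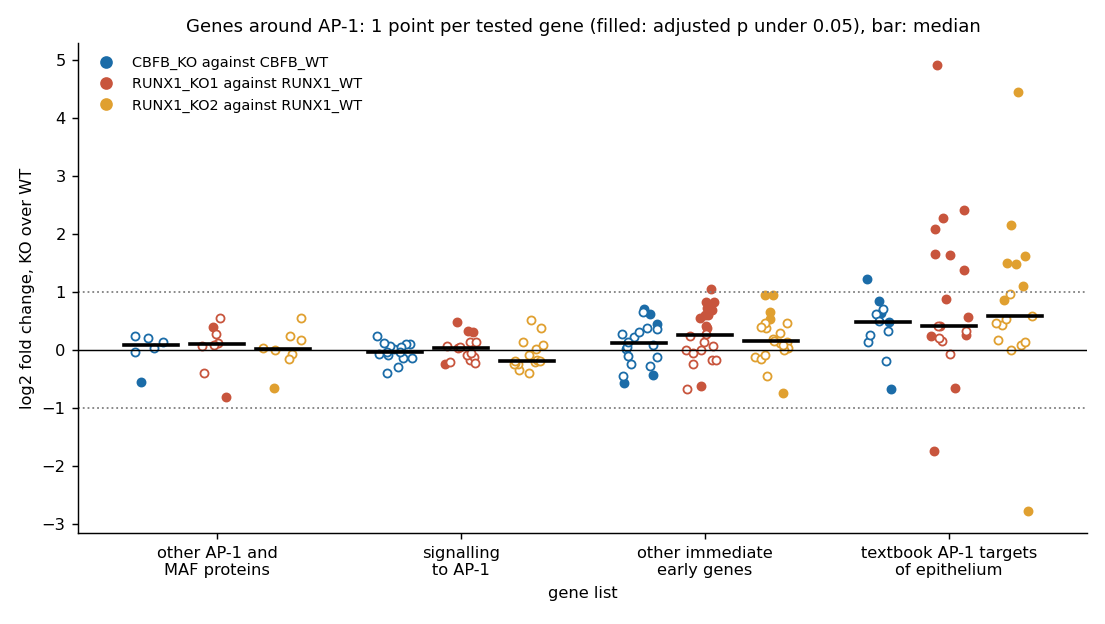
Log2 fold change of knockout over wild type for each tested gene of 4 lists around AP-1, with filled points where the adjusted p was below 0.05 and a bar at the list median. The medians of the target list lie at 0.49, 0.42 and 0.58, above those of the signaling list (-0.04, 0.03 and -0.18).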

How the data were processed

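RNA was measured by RNA-seq in 18 MCF10A libraries of 5 groups. Per the submitters' processing notes, reads were trimmed with Trimmomatic, aligned to hg19 with STAR and compared with DESeq2. The read counter, its strand setting and the annotation are not given in the sources used here. The labels name an mRNA kit, while the methods describe rRNA removal. The tables deposited by the authors hold, for each gene, a mean normalized count over both groups (signal, scaled by DESeq2), a log2 fold change with its SE, a test score, and a p-value with its Benjamini-Hochberg adjusted value. They hold no value per library and were normalized separately, 1 for each of 3 comparisons. These deposited comparison values are the data described here, because no other measurement was in the tables. The score, p-value and adjusted p were checked by recomputing each from the fold change and its SE.

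From them were computed (Python 3.11.15, numpy 2.4.6, pandas 2.3.3, scipy 1.17.1, figures with matplotlib 3.10.9): normal 95% intervals; group levels, as the mean split by the fold change, since both groups of a comparison had equal numbers of libraries; levels per kb of the longest GENCODE 29 transcript; and, for a pair of tables without shared libraries, the difference in log2 fold change over the combined SE, with a two-sided normal p-value adjusted over all genes tested in both tables. It was tested on simulated data. The SE of a member was compared with the median SE in 20 bins of genes by mean. The length and GC trend was a quadratic fit to genes with a mean of at least 100. It was subtracted, with the SE kept. Lengths were found for 98.9% to 99.2% of these genes.

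The text names all 10 members, the 2 targeted genes, and from each list the genes that passed in the same direction in all 3 tables or, if there were none, the 3 with the smallest adjusted p. A gene of 1 list is not reported here and was left out of its counts. The members and lists were chosen with earlier results of these data known. The count of columns with per-library values that were left unused is 0.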

Additional observations from a re-analysis of the deposited data

Results flagged for a closer look

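The response of IVL differed between CBFB_KO and both RUNX1 clones in the test of the difference itself. IVL rose less in CBFB_KO, with a difference of -1.20 ± 0.25 (SE) on the log2 scale against RUNX1_KO1 (adjusted p = 0.000162) and -0.94 ± 0.27 against RUNX1_KO2 (adjusted p = 0.0201). VIM, named after its values were seen, moved in opposite directions, with a difference of 2.37 ± 0.21 against RUNX1_KO1 (adjusted p = 1.33e-26) and 3.41 ± 0.24 against RUNX1_KO2 (adjusted p = 1.02e-43). Both are in the list of textbook AP-1 targets. No AP-1 member differed in this way. Comparisons within the RUNX1 pair were not tested, because the clones share their control libraries, and no single library could be checked against the others of its group.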

How the results depend on the processing

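The count of AP-1 members called changed was 0 in each comparison. It stayed 0 with centering on the median and with the length and GC trend removed. It was also 0 with a 4-fold limit, an adjusted p of 0.01, and adjustment over every gene with a p-value or over genes with a mean of at least 100. No tested member reached 2-fold, so these last settings could give no other count and are no check of it. With no fold limit it was 2 in CBFB_KO, 3 in RUNX1_KO1 and 2 in RUNX1_KO2, and with a 1.5-fold limit it was 2, 1 and 1. Among members that differed without a fold limit, an adjusted p of 0.01 left 1 in CBFB_KO (JUNB) and 1 in RUNX1_KO1 (JUNB). With the trend removed, 1 was left in RUNX1_KO1 (JUNB) and 1 in RUNX1_KO2 (JUN). The fold change reversed its sign with the trend removed for FOSL1 in CBFB_KO (-0.084), JUN in CBFB_KO (-0.091) and MAFF in RUNX1_KO2 (-0.047), none of which passed before or after. Centering and both other adjustments changed no member's call. Centering, or a mean of at least 100, kept the count of each of the 4 context lists within 1.5 times in each table. The count of members whose response differed stayed 0 under every alternative run, of which the adjusted p of 0.01 could give no other count. No paired analysis was possible because the tables hold no value per library, and for the same reason leaving out a replicate could not be run. Low counts limit ATF3, FOSB and BATF.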
